A study of Mus musculus with 6 samples.

Results

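The histone genes were read in splenic CD11b+Gr-1high cells of the mouse as 94 of the 45281 probes on an Illumina bead array. A probe belonged to the set where its platform symbol, or its gene's current symbol or older synonym in RefSeq, fitted a histone naming rule. The rule was Hist1h, Hist2h, Hist3h or Hist4h in older form and H1f, H2ac, H2bc, H3c or H4c with a number in current form. The 94 probes stood for 63 of the 19057 genes named on the array. Of these probes, 89 matched by current symbol, and 5 probes of 4 genes (H2aw, H2bu2, H2bu1-ps and H4f16) matched only by their older symbol. By class there were 11 probes for the linker histone H1, 24 for H2A, 20 for H2B, 18 for H3 and 21 for H4. Membership used the symbol and no measured value, but the family was taken up with earlier results of these data known, so the counts below are descriptions. Of the 63 genes, 47 lie on chromosome 13, in the large histone cluster of the mouse, and 9 on chromosome 3.

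The arrays held 3 groups of 2, all on an H-2b background. Wild-type mice (WT) carried no tumor, IRF8 KO mice (KO) lacked the gene for interferon regulatory factor 8 and carried no tumor, and the AT3 group was wild type with a tumor grown from AT-3, a mouse mammary carcinoma cell line. Sorting by flow cytometry gave a purity above 97%, in independent experiments, per the labels. The labels name neither the targeted allele nor the age, and do not say how many animals or which experiment each array stands for, so the p-values reflect only how far these arrays spread, which may be technical.

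Per array, 31.0% to 38.4% of all probes were detected, and the mean signal was between 265 and 284 in AT3 and between 379 and 421 in the other groups. Irf8, the targeted gene, read 4.85 and 5.34 on the normalized log2 scale in KO, 6.86 and 6.70 in WT, and 8.82 and 8.09 in AT3. It was lower in KO (-1.69, SE 0.31, limma adjusted p = 0.00607) and higher in AT3 (1.67, SE 0.31, limma adjusted p = 0.00656) than in WT, calls lost without WT array 1 (-1.61, adjusted p = 0.0514) and WT array 2 (1.59, adjusted p = 0.0576) respectively. The position of its probe relative to the deletion is not given, so this reading checks the labels only in part. Of the 10 granulocyte markers fixed for the labelled gate, 9 had a probe and all 9 passed the detection filter. S100a8 and S100a9, the abundant calprotectin subunits of neutrophils, did not pass the test against WT in KO (-0.04 and 0.33) or in AT3 (0.19 and 0.44). Their raw signals were 27000.9 to 35232.7 and 20145 to 27008.8, while the arrays' highest signals were 37558.3 to 41719.2. This near the top of the range, a missing call says little about change. Of the 9, 3 rose and 2 fell in KO, and 4 rose and 2 fell in AT3. That is 33.3% higher and 22.2% lower in KO, and 44.4% and 22.2% in AT3. Over all probes tested the shares were 15.6% and 15.7% in KO, and 15.4% and 17.2% in AT3. Csf3r and Cxcr2, receptors of mature neutrophils, had differences of -2.25 and -2.06 in KO and -2.08 and -1.06 in AT3. The granule protein genes Ngp and Camp were at 1.42 and 1.16 in KO and 1.21 and 1.06 in AT3, and Itgam, which encodes CD11b, at 2.06 and 1.65. Mmp8 rose in AT3 (1.70) and did not pass in KO (1.18). Ltf, with raw signals of 25503.4 to 32541.3, also near the top of the range, passed in neither (0.05 and 0.43). Ly6g was not analysed here. Macrophage markers were lower in both groups: 7 of the 7 that passed, against 15.7% of all probes tested in KO and 17.2% in AT3. Their summed level was 11484 and 9809 in WT, 757 and 611 in KO, and 1082 and 1500 in AT3 on the linear scale. Cd5l did not pass the filter. Erythroid markers summed to 369 and 322 in WT, 635 and 324 in KO, and 13785 and 4106 in AT3, with Klf1, Epor and Epb42 not past the filter. B cell markers summed to between 123 and 608 and T cell markers to between 151 and 849 per array, both highest on KO array 2, and Pax5 and Cd8a did not pass the filter. The part of these other cells, or of the changed granulocyte markers, in the histone results was not tested. In bulk RNA from sorted cells, fewer cells of a type and less RNA per cell cannot be told apart.

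Core histones H2A, H2B, H3 and H4 form the octamer that DNA wraps around, and H1 binds the linker DNA between these particles. Most of their genes lie in clusters in many near-identical copies and are switched on in S phase, when new DNA must be packaged. Their mRNAs normally end in a stem-loop and carry no poly(A) tail. Some of these genes, the human counterpart of H1f2 among them, are known to make polyadenylated mRNAs as well, mostly in cells that have stopped dividing. The amplification kit named in the labels primes from poly(A) tails, so the signals are of transcripts that such priming can copy. Copies of a class differ little in sequence, and the probes' own sequences were not used here. A probe named after a copy may therefore also bind its neighbours' transcripts, and each result below is a result for a probe.

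H2A and H2B genes often lie head to head and share a promoter. Among the 57 of 63 genes with a promoter entry, 6 such H2A and H2B pairs were found. All lie on chromosome 13, with starts between 164 and 281 bases apart. The pairs H2ac12 with H2bc12 and H2ac15 with H2bc15 are shown because their members moved in opposite directions, as described below. H1f2 and H2bc6 are shown as genes whose probes fell by much in both groups. Each sequence runs from 250 bases before to 50 bases after the gene's start, on GRCm38.p6 from RefSeq, and 57 of the 63 genes had an entry. Capitals mark 3 motifs on either strand: CCAAT, the TATA box core TATAAA and the octamer ATGCAAAT.
H2ac12, chr13:22035594-22035893, minus strand: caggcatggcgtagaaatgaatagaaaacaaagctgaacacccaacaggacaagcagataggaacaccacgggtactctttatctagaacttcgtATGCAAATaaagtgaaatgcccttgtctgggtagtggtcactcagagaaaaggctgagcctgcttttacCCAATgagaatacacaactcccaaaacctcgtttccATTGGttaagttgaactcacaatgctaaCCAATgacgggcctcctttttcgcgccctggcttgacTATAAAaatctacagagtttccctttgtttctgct
H2bc12, chr13:22035571-22035870, plus strand: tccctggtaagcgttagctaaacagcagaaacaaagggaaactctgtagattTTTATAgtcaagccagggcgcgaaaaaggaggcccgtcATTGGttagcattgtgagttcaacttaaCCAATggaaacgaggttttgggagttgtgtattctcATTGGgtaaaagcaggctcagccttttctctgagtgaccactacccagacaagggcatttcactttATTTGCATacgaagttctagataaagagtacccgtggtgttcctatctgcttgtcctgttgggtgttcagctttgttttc
H2ac15, chr13:21753863-21754162, minus strand: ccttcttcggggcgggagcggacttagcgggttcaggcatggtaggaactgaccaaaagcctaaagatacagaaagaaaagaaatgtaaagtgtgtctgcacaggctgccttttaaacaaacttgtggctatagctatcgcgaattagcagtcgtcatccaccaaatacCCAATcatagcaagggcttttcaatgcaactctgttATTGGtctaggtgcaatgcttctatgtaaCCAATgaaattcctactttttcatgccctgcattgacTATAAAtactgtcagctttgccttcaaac
H2bc15, chr13:21753826-21754125, plus strand: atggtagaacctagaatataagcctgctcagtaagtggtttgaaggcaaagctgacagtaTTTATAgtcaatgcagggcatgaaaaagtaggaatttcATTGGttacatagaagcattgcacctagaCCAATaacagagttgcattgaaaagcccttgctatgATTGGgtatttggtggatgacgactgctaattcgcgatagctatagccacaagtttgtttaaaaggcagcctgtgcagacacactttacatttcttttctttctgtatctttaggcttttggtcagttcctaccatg
H1f2, chr13:23738557-23738856, plus strand: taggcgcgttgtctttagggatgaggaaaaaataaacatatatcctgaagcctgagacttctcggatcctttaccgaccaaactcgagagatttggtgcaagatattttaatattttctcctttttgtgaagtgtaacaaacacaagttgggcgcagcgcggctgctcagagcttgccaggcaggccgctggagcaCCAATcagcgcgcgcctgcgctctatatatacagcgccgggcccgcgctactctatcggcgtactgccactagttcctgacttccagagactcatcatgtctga
H2bc6, chr13:23585921-23586220, minus strand: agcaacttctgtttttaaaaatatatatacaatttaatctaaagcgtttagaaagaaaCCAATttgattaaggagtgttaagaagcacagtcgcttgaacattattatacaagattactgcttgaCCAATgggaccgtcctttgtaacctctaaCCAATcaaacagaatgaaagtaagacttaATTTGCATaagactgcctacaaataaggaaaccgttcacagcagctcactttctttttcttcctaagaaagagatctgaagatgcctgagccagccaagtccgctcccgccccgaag

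The windows of a pair cover largely the same stretch on opposite strands, so their marked sites are the same sites. CCAAT, the box bound by the factor NF-Y, occurred in 80.7% of the histone windows and 37.8% of all 27025 windows. It was in 100% of the windows of H2A, H2B and H3 genes, 77.8% of those of H1 genes and 25% of those of H4 genes. The octamer ATGCAAAT, a site of POU factors, occurred in 24.6% of the histone windows against 1.74% of all, in 7 of 17 H2A genes, 7 of 12 H2B genes and in no window of the other classes. TATAAA, the core of the TATA box, was in 56.1% of the histone windows against 14.1% of all. A match is a description of letters and not of a bound site.

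Of the 94 probes, 73 passed the detection filter (detection p under 0.05 on at least 2 of 6 arrays), 61 were detected on all 6 arrays, 20 on none and 1 on a single array. Those that failed had raw signals between 100.4 and 140.2. H1 lost most, with 4 of 11 probes passing. H1f3, H1f4, H1f6, H1f7, H1f8 and H1f10 were not detected on any array, and H1f6, H1f7 and H1f8 are known as germ cell forms. In the other classes 22 of 24 H2A, 17 of 20 H2B, 12 of 18 H3 and 18 of 21 H4 probes passed, and the only probe of the testis gene H2bc1 did not. A probe that passed through the group where it is high had to differ between groups, so the counts over these 73 probes are no measure of the whole set.

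In KO cells 26 of the 73 probes were higher than in WT and 27 lower (limma, Benjamini-Hochberg adjusted p under 0.05 over all 17631 probes tested), which is 72.6% against 31.3% of all probes tested. In AT3 cells 21 were higher and 29 lower than in WT, which is 68.5% against 32.6% of all. Both comparisons use the same WT arrays, so their values are set side by side and not counted against each other. The median log2 difference was 0.31 in KO and -0.15 in AT3, near those over all probes of 0.02 and -0.03, while single classes moved in opposite directions. The arrays of KO and WT did not overlap for 63 of the 73 probes, against 69.1% of all probes tested, and those of AT3 and WT for 68, against 70.7%. The AT3 median was 0.23 once the arrays' medians over detected probes were made equal and -0.61 with no scaling between arrays, settings under which the median of all probes was 0.41 and -0.42. The calls for AT3 were then 31 higher and 28 lower, and 8 higher and 35 lower. WT arrays bore most on the counts: without WT array 1 or 2, the calls in KO were 15 or 12 higher and 20 lower with either left out, and those in AT3 11 or 5 higher and 20 or 22 lower. Without AT3 array 1, 8 were called higher in AT3. Many of the 53 probes called in KO and the 50 in AT3 lost their call when single arrays were left out. For each called probe the WT arrays did not overlap those of the other group. Leaving out 1 array could therefore not reverse its direction. Over the 73 probes, the log2 levels of KO and AT3 arrays correlated at 0.967 to 0.986 across probes, close to arrays of the same group at 0.985 to 0.996. WT arrays correlated with the others at 0.769 to 0.891. For all probes tested these ranges were 0.912 to 0.930, 0.967 to 0.988 and 0.843 to 0.897. Probes are not independent, and they share each array and their own brightness.

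**Figure D1:**
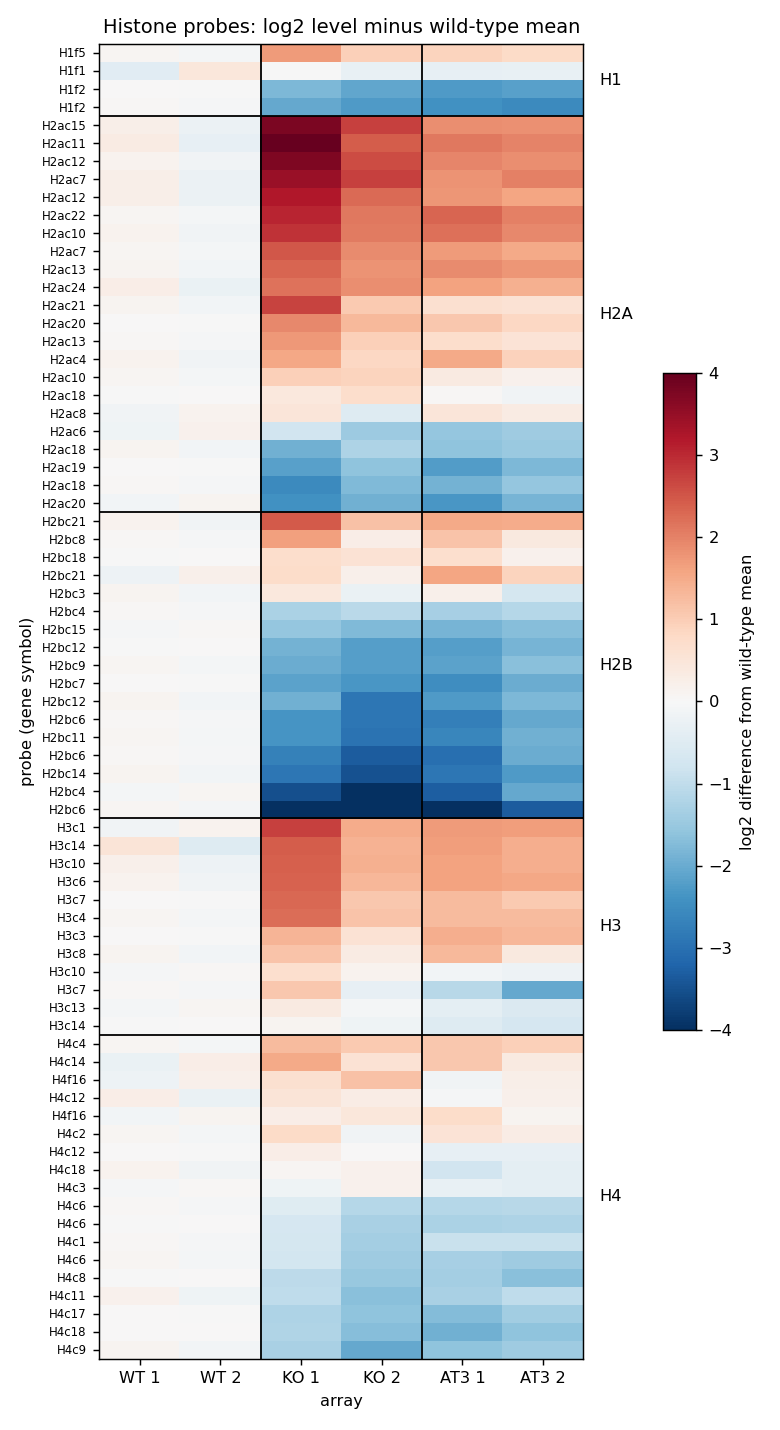
Normalized log2 level of each of the 73 histone probes on each array, minus the probe's WT mean, with colours ending at a difference of 4 either way. Rows are grouped by class and ordered by the difference in KO: most H2A and H3 rows are red in KO and AT3, most H2B rows blue, and H4 rows mostly pale or blue.

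Linker histone H1 was measured by 4 probes of 3 genes. H1f2 (older name Hist1h1c), a somatic linker histone, fell in both groups. Its probe ILMN_2855315 read 14.36 and 14.28 in WT, 12.27 and 12.05 in KO, and 11.89 and 11.78 in AT3 on the normalized log2 scale. All 4 KO and AT3 arrays lay well below both WT arrays. The difference was -2.16 in KO (SE 0.22, 4.47-fold lower, limma adjusted p = 0.000685) and -2.49 in AT3 (SE 0.22, 5.60-fold lower, limma adjusted p = 0.000683). The other H1f2 probe, ILMN_2774537, fell by 1.94 and 2.22. Both probes kept these calls with each array left out in turn. H1f5 (Hist1h1b), another somatic linker histone, went the other way. It read 5.27 and 5.11 in WT, 6.88 and 6.13 in KO, and 6.09 and 5.94 in AT3, with no overlap between WT and either group. It was higher in KO (1.32, SE 0.29, limma adjusted p = 0.0123), a call lost without WT array 1 (1.40, adjusted p = 0.0642) or WT array 2 (1.24, adjusted p = 0.0921). It did not pass in AT3 (0.83, SE 0.29, limma adjusted p = 0.0613). H1f1 was detected on only 2 arrays and passed in neither comparison, with differences of -0.15 and -0.30.

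H2A probes were mostly higher. In KO 15 of 22 rose and 5 fell, with a median of 1.74, and in AT3 12 rose and 5 fell, with a median of 1.09. Rises made up 68.2% and 54.5% of H2A probes, against 15.6% and 15.4% of all probes tested. Falls made up 22.7% in both, against 15.7% and 17.2% of all. The largest rise in KO was that of H2ac15 (Hist1h2ak), at 11.13 and 10.67 in WT, 14.65 and 13.62 in KO, and 12.76 and 12.74 in AT3. The groups did not overlap, and the AT3 arrays lay between WT and KO. H2ac15 was 9.39-fold higher in KO (3.23, SE 0.36, limma adjusted p = 0.000942) and 3.59-fold higher in AT3 (1.85, SE 0.36, limma adjusted p = 0.00779). The AT3 call was lost without WT array 2 (1.62, adjusted p = 0.0685). H2ac11 (Hist1h2ag) read 8.66 and 8.01 in WT, 12.33 and 10.76 in KO, and 10.43 and 10.32 in AT3, with differences of 3.21 (SE 0.48) and 2.04 (SE 0.48). Its KO array 1 lay well above KO array 2, and its AT3 call was lost without either WT or either AT3 array (1.71 to 2.37, adjusted p = 0.0501 to 0.113). Both H2ac12 probes rose, by 3.18 and 2.74 in KO and 1.91 and 1.68 in AT3, as did both H2ac7 probes, by 3.08 and 2.18 in KO and 1.92 and 1.61 in AT3. The AT3 calls of both H2ac12 probes were lost without WT array 2 (1.75 and 1.45), and that of ILMN_1246108 also without AT3 array 1 (1.59, adjusted p = 0.0541). H2ac22, the probe with the largest rise in AT3, gained 2.17 there and 2.58 in KO.

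Some H2A probes had raw signals near the top of the arrays' range. H2ac24 (Hist1h2ap) had raw signals of 10558.9 and 7737.9 in WT, 35567.8 and 32017.4 in KO, and 20911.6 and 16423.1 in AT3, and the highest signal of any probe on those KO arrays was 41458.1 and 41564.0. Its normalized difference was 2.02 in KO (SE 0.26) and 1.52 in AT3 (SE 0.26), both past the test. The AT3 call was lost without WT array 2 (1.26, adjusted p = 0.0554). H2ac10 (Hist1h2af) had a probe with raw WT signals of 18563.0 and 16472.4 that rose by 0.92 in KO and did not pass in AT3 (0.26), and another, with 2839.1 and 2234.1, that rose by 2.47 and 2.06. H2ac13 (Hist1h2ai) showed the same, with 1.33 and 0.62 for the probe with raw WT signals of 12275.2 and 10913.4, and 2.07 and 1.82 for that with 3926.6 and 3114.2. The KO calls of the H2ac10 probe at 0.92 and the H2ac13 probe at 1.33 were lost without either WT array, the former also without KO array 1. The calls of H2A probes higher in AT3 were 5 without WT array 2 and 8 without AT3 array 1.

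The 5 H2A probes that fell were 4 on chromosome 3 and 1 on chromosome 13. On chromosome 13, 13 of 15 H2A probes rose in KO and 11 in AT3, and only H2ac6 (Hist1h2ac) fell, by 1.11 in KO and by at least 2.46-fold in AT3, where neither array detected it. Its KO call was lost without KO array 2 or either WT array (-1.28 to -0.77, adjusted p = 0.0663 to 0.156), and its AT3 call without WT array 2 (adjusted p = 0.0722). On chromosome 3, 2 of 7 rose and 4 fell in KO, and 1 rose and 4 fell in AT3. H2ac18 (Hist2h2aa1) read 12.85 and 12.78 in WT, 10.27 and 11.05 in KO, and 10.91 and 11.27 in AT3 with probe ILMN_1231053. That is -2.16 in KO (SE 0.30, 4.47-fold lower, limma adjusted p = 0.00216) and -1.73 in AT3 (SE 0.30, 3.31-fold lower, limma adjusted p = 0.00538). A further H2ac18 probe fell by 1.59 and 1.55, its AT3 call lost without WT array 1 (-1.44), while the last, with WT and AT3 arrays all undetected, did not pass (0.57 and -0.04). H2ac19 (Hist2h2aa2), a near-identical neighbour of H2ac18, fell by 1.88 and 2.02.

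H2ac20 (Hist2h2ac) was the exception among 18 genes with 2 or more passing probes: its probes were called in opposite directions, in both comparisons. Probe ILMN_1218380 read 13.28 and 13.26 in WT, 15.18 and 14.56 in KO, and 14.35 and 14.10 in AT3. Probe ILMN_1254276 read 10.46 and 10.70 in WT, 8.17 and 8.67 in KO, and 8.26 and 8.72 in AT3. The first rose by 1.60 (SE 0.27, limma adjusted p = 0.00438) and 0.96 (SE 0.27, limma adjusted p = 0.030), and the second fell by 2.16 (SE 0.28, limma adjusted p = 0.00157) and 2.09 (SE 0.28, limma adjusted p = 0.00213). The rise in AT3 was lost without any of the WT or AT3 arrays (0.83 to 1.08, adjusted p = 0.0623 to 0.144). WT overlapped neither KO nor AT3 for either probe, while the KO and AT3 arrays overlapped for the second, so these arrays give the gene no direction against WT. Among the 18 genes, all probes of 8 were called the same way in KO and those of 8 in AT3. No probe was called for 1 gene in KO and 2 in AT3, and called and uncalled probes were mixed for 8 and 7.

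H2B probes were mostly lower. Of 17, 12 fell and 1 rose in KO, with a median of -2.10, and 12 fell and 2 rose in AT3, with a median of -2.04. Falls made up 70.6% of H2B probes in both, against 15.7% and 17.2% of all probes tested. Rises made up 5.88% and 11.8%, below the 15.6% and 15.4% of all. H2bc6 (Hist1h2be) held the largest fall of the set. Its probe ILMN_2676243 read 9.95 and 9.82 in WT, 5.34 and 5.15 in KO, and 4.68 and 6.55 in AT3. The KO and AT3 values overlapped far below WT, and AT3 array 1 did not detect the probe (detection p 0.193). The difference was -4.64 in KO (SE 0.53, 25.0-fold lower, limma adjusted p = 0.00104) and -4.27 in AT3 (SE 0.53, 19.3-fold lower, limma adjusted p = 0.00172). The differences of the other H2bc6 probes were -3.01 and -2.63 in KO and -2.49 and -2.38 in AT3.

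H2bc4 (Hist1h2bc) read 12.25 and 12.39 in WT, 8.81 and 8.28 in KO, and 9.02 and 10.28 in AT3 with probe ILMN_1242399. It was 13.7-fold lower in KO (-3.77, SE 0.41, limma adjusted p = 0.000898) and 6.36-fold lower in AT3 (-2.67, SE 0.41, limma adjusted p = 0.00345). Its dim probe, undetected on all KO and AT3 arrays, was at least 1.85-fold lower in KO, a call lost without either WT array, and at least 1.61-fold lower in AT3, a call lost without WT array 1. Further H2B probes fell in both groups, with differences in KO and AT3 of -3.18 and -2.58 for H2bc14 (Hist1h2bm), -2.66 and -2.26 for H2bc11 (Hist1h2bj), -2.24 and -2.22 for H2bc7 (Hist1h2bf) and -2.10 and -1.90 for H2bc9 (Hist1h2bh). Those of the H2bc12 (Hist1h2bk) probes were -2.40 and -2.04 in KO and -2.04 and -2.04 in AT3. Every H2B probe that fell lies on chromosome 13, 12 of 14 there in both comparisons, and no H2B probe there was called higher. H2bc21 (Hist2h2be), on chromosome 3, was the H2B gene that rose. Its probe ILMN_1253851 read 7.57 and 7.26 in WT, 9.86 and 8.60 in KO, and 8.94 and 8.91 in AT3, a rise of 1.81 in KO (SE 0.39, limma adjusted p = 0.0119) and 1.51 in AT3 (SE 0.39, limma adjusted p = 0.0228). The call of this probe in KO was lost without either WT array (1.65 and 1.97) and in AT3 without any of the WT or AT3 arrays (1.35 to 1.67). The other H2bc21 probe, ILMN_1231066, did not pass in KO (0.47, SE 0.32, limma adjusted p = 0.304). It rose in AT3 (1.23, SE 0.32, limma adjusted p = 0.0228), a call lost without either WT array or AT3 array 1 (0.88 to 1.43). The counts of H2B probes that fell were between 11 and 12 with each array left out in turn, in both comparisons.

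**Figure D2:**
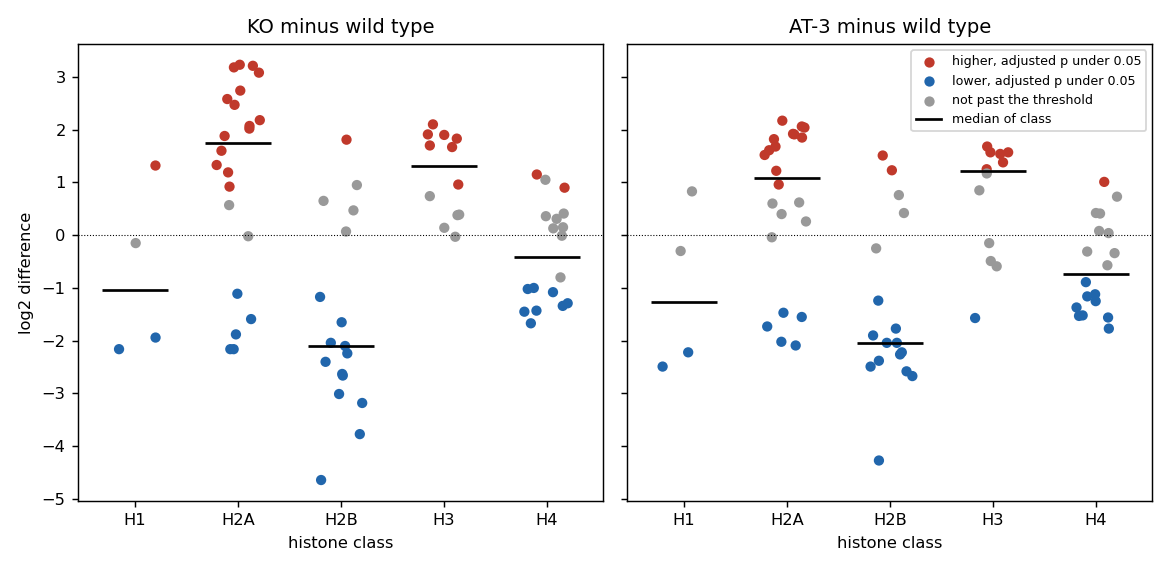
Log2 difference of each histone probe from WT by class, in KO (left) and AT3 (right), with the class median as a bar and colour showing the limma call. H2A and H3 medians lie above 0 (1.74 and 1.32 in KO, 1.09 and 1.21 in AT3) and H2B medians below (-2.10 and -2.04).

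**Figure D3:**
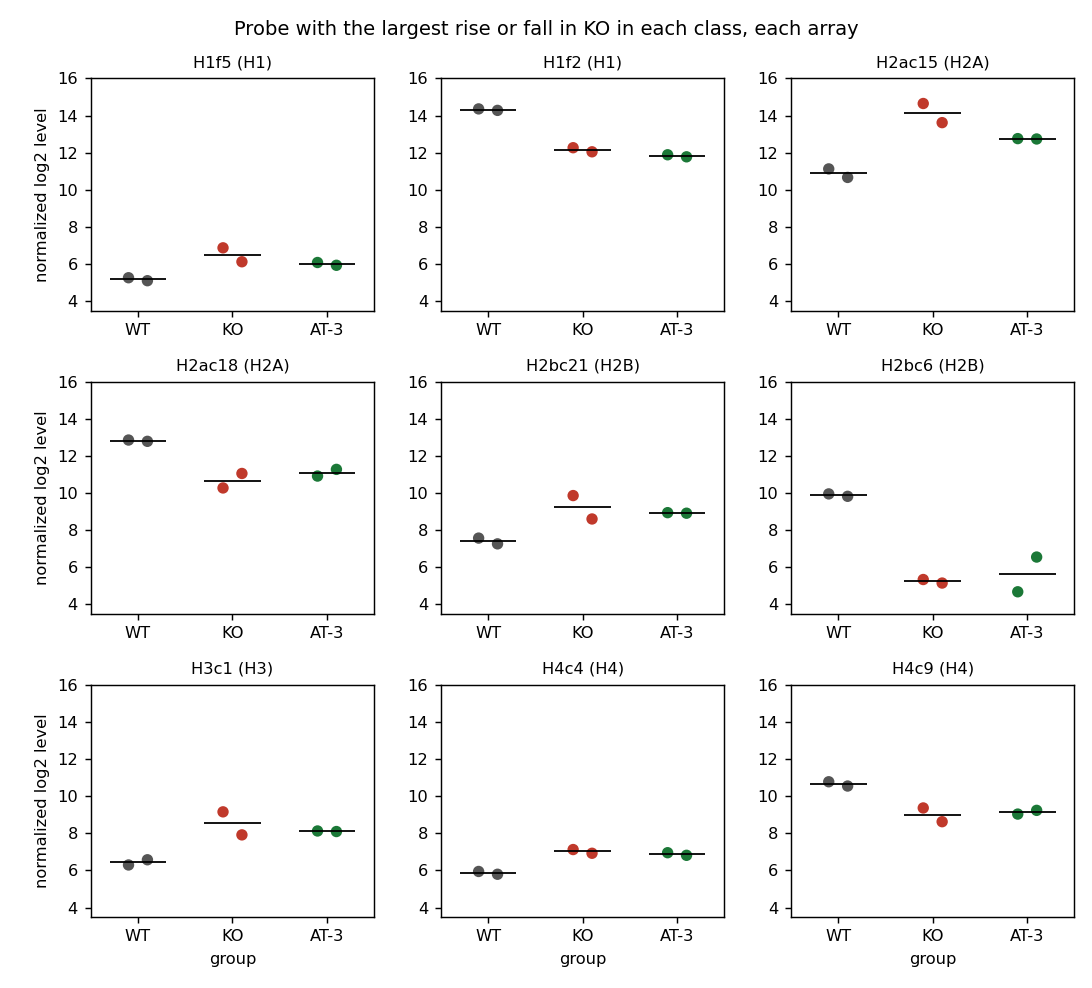
Normalized log2 level on each array (points) and group mean (bars) of the probe with the largest called rise and the largest called fall in KO in each class. The KO arrays stand apart from each other for H2ac15, H2bc21 and H3c1, and all WT arrays lie clear of the KO arrays in each panel.

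In the 5 head-to-head pairs with both genes past the filter, H2A rose and H2B fell in 4, in KO and in AT3 alike. These pairs were picked out after the values were seen. The search covered only genes with a promoter entry, so the tally may leave out pairs. H2bc4 and H2bc21 were among the genes without an entry and could not be paired. H2ac15 rose by 3.23 and 1.85 while H2bc15, whose start is 164 bases away, fell by 1.65 and 1.77. H2ac12 and H2bc12, 178 bases apart, H2ac7 and H2bc7, 174 apart, and H2ac11 and H2bc11, 249 apart, parted in the same way, with the values given above for each gene. H2ac8 and H2bc8, 180 apart, were called in neither comparison, at -0.02 and 0.95 in KO and 0.40 and 0.76 in AT3. For H2bc1 and H2ac1, 281 apart, no probe passed.

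**Figure D4:**
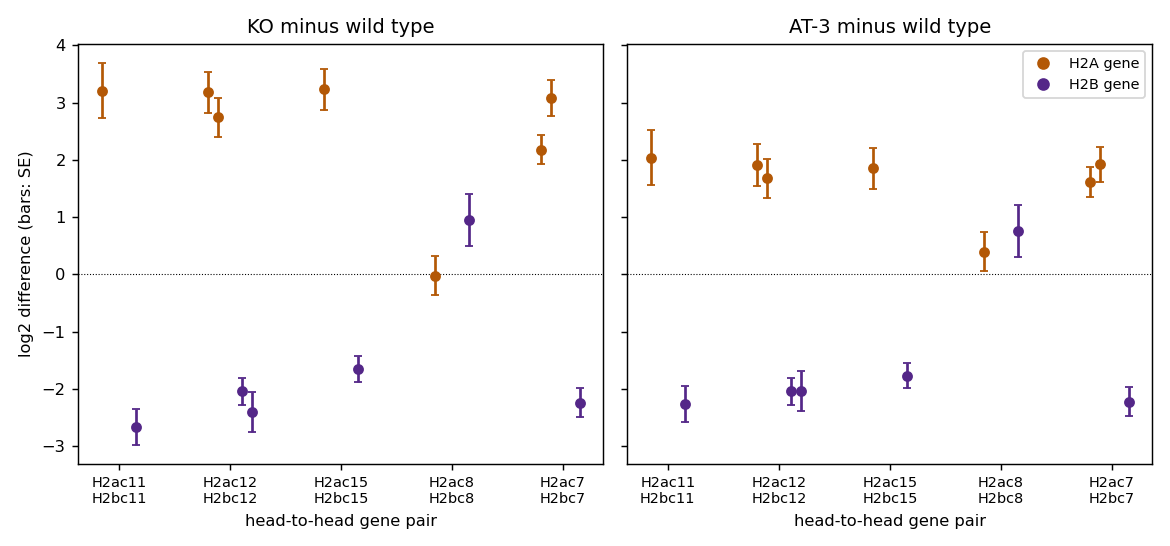
Log2 difference from WT, with its SE as bars, of each probe of the 5 measured head-to-head H2A and H2B pairs. In 4 pairs the H2A points lie between 1.61 and 3.23 and the H2B points between -2.66 and -1.65, while the H2ac8 and H2bc8 points lie between -0.02 and 0.95.

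H3 probes rose or did not pass in KO. Of 12, 7 rose and none fell in KO, with a median of 1.32, and 6 rose and 1 fell in AT3, with a median of 1.21. Rises made up 58.3% of H3 probes in KO, against 15.6% of all probes tested. The 6 of 12 in AT3 stand against 15.4% of all. Falls were below the background, with none in KO against 15.7% of all and 8.33% in AT3 against 17.2%. H3c1 (Hist1h3a) read 6.29 and 6.57 in WT, 9.15 and 7.91 in KO, and 8.12 and 8.09 in AT3. Neither group overlapped WT, and the rise was 2.10 in KO (SE 0.39, limma adjusted p = 0.00637) and 1.68 in AT3 (SE 0.39, limma adjusted p = 0.015). The KO call was lost without WT array 1 (1.96, adjusted p = 0.052) and the AT3 call without any of the WT or AT3 arrays (1.54 to 1.82). H3c6 (Hist1h3e) rose by 1.83 and 1.57 and H3c4 (Hist1h3d) by 1.67 and 1.25. Probes of a gene differed here too. H3c10 (Hist1h3h) had a probe with raw WT signals of 2158.9 and 2195.9 that did not pass in KO or AT3 (0.39 and -0.15) and another, with 174.6 and 143.7, that rose by 1.90 and 1.54. H3c14 (Hist2h3c1) likewise had a probe that did not pass (-0.03 and -0.59, raw WT signals of 2406.7 and 2281.2) and one that rose (1.91 and 1.57, raw WT signals of 143.6 and 106.9, the second undetected). H3c13 (Hist2h3b) did not pass either (0.14 and -0.49).

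The H3 counts were sensitive to single arrays, and no H3 call in either comparison was kept with each array left out in turn. In KO, 3 were called higher without WT array 1 and 1 without WT array 2. In AT3, 2 were called higher without WT array 1, 0 without WT array 2, 0 without AT3 array 1 and 2 without AT3 array 2, and 0 with no scaling between arrays and 3 without background correction. The medians stayed above 0 under these scalings, at 0.40 with no scaling and 0.53 without background correction in AT3. H3c7 (Hist1h3f) was the H3 gene with a fall. Its probe ILMN_2925169 read 7.23 and 7.11 in WT, 8.25 and 6.85 in KO, and 6.06 and 5.13 in AT3. It did not pass in KO, whose arrays lay on either side of WT, and was lower in AT3 (-1.57, SE 0.48, limma adjusted p = 0.0407), a call lost without any of the WT or AT3 arrays (-2.04 to -1.11). The other H3c7 probe rose in KO (1.70, SE 0.38, limma adjusted p = 0.0136) and did not pass in AT3 (1.17, SE 0.38, limma adjusted p = 0.0505).

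More H4 probes fell than rose. Of 18, 8 fell and 2 rose in KO, with a median of -0.40, and 9 fell and 1 rose in AT3, with a median of -0.73. Falls made up 44.4% of H4 probes in KO, against 15.7% of all probes tested. The 9 of 18 in AT3 stand against 17.2% of all. Rises made up 11.1% in KO and 5.56% in AT3, below the 15.6% and 15.4% of all. The KO median was 0.01 with no scaling between arrays. H4c9 (Hist1h4i) read 10.77 and 10.54 in WT, 9.36 and 8.62 in KO, and 9.03 and 9.23 in AT3. Both groups lay below WT, by 1.67 in KO (SE 0.29, 3.18-fold lower, limma adjusted p = 0.00513) and 1.53 in AT3 (SE 0.29, 2.88-fold lower, limma adjusted p = 0.00747). H4c17 (Hist1h4m) fell by 1.43 and 1.56, H4c11 (Hist1h4j) by 1.34 and 1.16, and H4c1 (Hist1h4a) by 1.02 and 0.89. Of the H4c6 probes 2 of 3 fell in KO and 3 of 3 in AT3, by 1.12 to 1.37 in AT3. H4c18 had a probe that fell by 1.45 and 1.77 and another that did not pass (0.13 and -0.57). H4c4 (Hist1h4d) rose, from 5.94 and 5.79 in WT to 7.12 and 6.92 in KO and 6.95 and 6.81 in AT3 (1.15 and 1.01, SE 0.22 for both, limma adjusted p = 0.00707 in KO and 0.0115 in AT3). An H4f16 (Hist4h4) probe also rose in KO (0.90, SE 0.28, limma adjusted p = 0.0459). The AT3 call of H4c9 was lost without WT array 1 (-1.41), the KO call of H4c4 without WT array 2 (1.07), its AT3 call without either WT array or AT3 array 1 (0.94 to 1.09), and the H4f16 call without any array but KO array 1 (0.64 to 1.10). The KO calls of H4c1 and H4c11 were lost without either WT array, that of H4c1 also without KO array 2, and their AT3 calls without any of the WT or AT3 arrays (adjusted p = 0.051 to 0.186). The KO calls of the H4c6 probes were lost without either WT array or KO array 2, and their AT3 calls without either WT array. The AT3 call of H4c6 probe ILMN_2525565 was also lost without AT3 array 1 (-1.11) or AT3 array 2 (-1.13). The H4 counts of falls were 3 without WT array 1 and 3 without WT array 2 in KO, 5 without KO array 2, and 3 and 4 without the WT arrays in AT3, against 6 without AT3 array 1 and 6 without AT3 array 2.

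The KO arrays differed from each other in histone signal. KO array 1 was higher than KO array 2 for 63 of 73 histone probes, against 47.2% of all probes tested, and the median distance between the arrays was 0.62 for histone probes and 0.31 for all. The distances were 0.16 and 0.19 in WT and 0.20 and 0.27 in AT3. By class, the median of KO array 1 minus KO array 2 was 0.98 for H3, 0.70 for H2A, 0.52 for H2B, 0.48 for H4 and 0.30 for H1. Of 17 H2B probes, most of which fell against WT, 16 were higher on KO array 1, as were 17 of 22 H2A probes and 12 of 12 H3 probes. Genes of DNA replication moved with it: 22 of 22 were higher on KO array 1, with a median distance of 2.17, as were 14 of 15 G2/M genes, with a median of 1.45. Their part in the histone difference between these arrays was not tested. Against WT, the H2A median was 1.18 without KO array 1 and 2.05 without KO array 2, and the H3 median 0.83 and 1.79. The H2B median was -2.21 and -1.93.

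Between AT3 and KO, few histone probes passed the test. None was higher in AT3, against 5.21% of all probes tested, and 2 were lower, which is 2.74% of 73 against 5.30% of all, and 17 had an unadjusted p under 0.05. The differences ran from -1.95 to 1.10, with a median of -0.29, and 71 probes that missed the threshold are not shown to be alike. H3c7 probe ILMN_2925169, with its arrays given above, was lower in AT3 by 1.95 (SE 0.48, limma adjusted p = 0.0439), and H2ac15 by 1.39 (SE 0.36, limma adjusted p = 0.0497). Both calls were lost without any array but KO array 2 (-2.42 to -1.25 and -1.40 to -0.87). Of the H2A probes 17 of 22 were below 0, with a median of -0.54, and of the H2B probes 11 of 17 were above 0, with a median of 0.20. These signs depended on scaling: the H2A median was 0.06 once array medians were made equal and the H2B median -0.88 with no scaling, while the median of all probes moved to 0.36 and -0.85. With no scaling, 55 probes were called lower in AT3. Without KO array 2, 9 were called lower, and 0 were without any other single array. Without AT3 array 1, 2 were called higher.

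Histone genes outside the naming rule, and the genes that make and carry histones, were read beside the set from lists chosen with earlier results known. Each gene of a list was read by its passing probe of highest mean level. Of 9 measured variant genes outside the naming rule, 3 rose and none fell in KO, and 5 rose and none fell in AT3. That is 33.3% and 55.6% called, against 31.3% and 32.6% of all probes tested, so the share in KO was near the background. H2ax, the variant phosphorylated at DNA breaks, read 8.54 and 8.24 in WT, 12.24 and 10.91 in KO, and 11.06 and 10.82 in AT3. It rose by 3.18 in KO (SE 0.41, limma adjusted p = 0.00168) and 2.55 in AT3 (SE 0.41, limma adjusted p = 0.00418). Cenpa, the centromeric H3, rose by 2.13 and 1.94, and H2az1, a replacement H2A, by 2.00 and 1.24. The replacement H3 genes H3f3a and H3f3b, chosen here after their values were seen and known to be made outside S phase with poly(A) tails, were at -0.02 and 0.24 in KO and -0.54 and -0.70 in AT3 and did not pass. Without KO array 2, 5 variant genes rose in KO, and in AT3 the count was 3 without WT array 1 or either AT3 array and 2 without WT array 2 or with no scaling.

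Of 10 measured factors of histone mRNA processing and transcription, 4 rose and 1 fell in KO and in AT3. Over all probes tested, 15.6% were higher and 15.7% lower in KO, and 15.4% and 17.2% in AT3. The share of falls in this list was thus below the background, and the share of rises above it. Cstf2, a cleavage stimulation subunit, rose by 2.23 and 1.62, and E2f1, an activator of S phase genes, by 2.11 and 1.52. Srrt rose by 1.38 and 1.02, and Ncbp1, a cap-binding subunit, by 1.37 and 1.67. Lsm10, a subunit of the U7 snRNP that trims histone mRNA ends, fell by 1.60 and 0.94. Slbp, which binds the stem-loop, Npat, Casp8ap2, Cpsf3 and Eri1 did not pass the detection filter. Of 19 histone chaperones, 8 rose and 3 fell in KO and 11 rose and 3 fell in AT3. That is 42.1% higher and 15.8% lower in KO, and 57.9% and 15.8% in AT3, so the share of falls was near the background. Asf1b rose by 3.07 and 2.85. Chaf1a and Chaf1b are subunits of the chromatin assembly factor that works at replication forks. Chaf1a, detected on neither WT array, was at least 6.59-fold higher in KO and at least 6.51-fold higher in AT3, and Chaf1b rose by 2.52 and 2.36. Anp32e, which removes H2A.Z, rose by 2.49 and 2.05. Ubn2, which works with Hira on replacement H3, fell by 1.56 and 1.38, and Daxx by 1.24 and 1.07. Ipo4, an importin for histones, fell by 0.78 in KO and was at least 1.5-fold lower in AT3, where neither array detected it. In AT3 these counts leaned on single arrays: with a WT or AT3 array left out, 1 or 2 of the mRNA factors and 1 to 3 of the chaperones were called higher. In KO the chaperones called higher were 2 without WT array 1, 3 without WT array 2 and 14 without KO array 2. Those called lower were 1 in KO without KO array 1 or either WT array, and in AT3 1 without WT array 1 or either AT3 array and 0 without WT array 2. The mRNA factor called lower in AT3 was lost without any of the WT or AT3 arrays.

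Cell cycle genes rose in both groups. Of 22 DNA replication genes, 15 rose and none fell in either group, with medians of 2.18 in KO and 2.47 in AT3. Of 15 G2/M genes 11 rose and none fell, with medians of 3.64 and 3.61. Called higher were 68.2% of the replication list and 73.3% of the G2/M list in both comparisons. Over all probes tested, 15.6% were higher in KO and 15.4% in AT3. Uhrf1, which recruits the maintenance DNA methyltransferase to new DNA, rose by 4.44 and 4.43. Tyms, thymidylate synthase, was detected on neither WT array and was at least 15.4-fold higher in KO and at least 19.2-fold higher in AT3. In both comparisons 6 of the 22 replication genes and 4 of the 15 G2/M genes were undetected on both arrays of the dimmer group. With these at their bound, the replication medians were 2.03 and 2.20 and the G2/M medians 3.64 and 3.61. The G2/M counts stayed between 10 and 12 with each array left out. The replication counts in KO were 6 and 5 without the WT arrays, 10 without KO array 1 and 21 without KO array 2, and in AT3 they were 6 without either WT array or AT3 array 2 and 9 without AT3 array 1. Without background correction, 6 replication genes were called higher in KO and 8 in AT3. The H2A and H3 medians had the same sign as these lists in both groups, and the H2B and H4 medians the opposite sign, H4 in KO with the exception of the fit with no scaling.

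**Figure D5:**
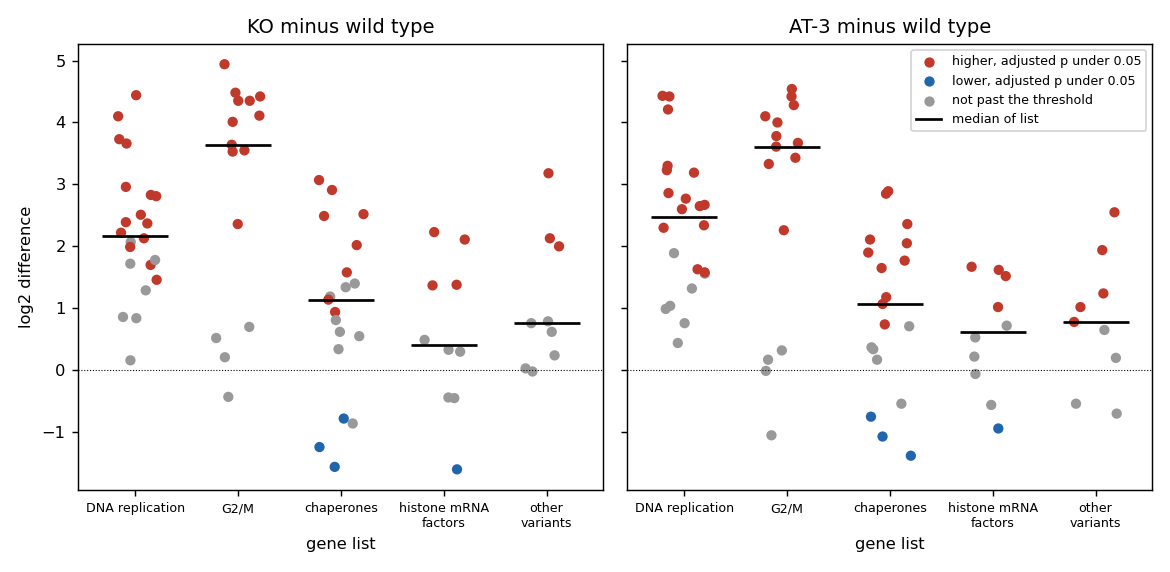
Log2 difference from WT of genes of DNA replication, G2/M, histone chaperones, histone mRNA factors and other histone variants, in KO (left) and AT3 (right), 1 probe per gene, with the list median as a bar. List medians lie at 2.18, 3.64, 1.14, 0.41 and 0.76 in KO and 2.47, 3.61, 1.07, 0.63 and 0.78 in AT3.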

How the data were processed

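RNA from 6 arrays was read from 2 deposited files. Per the file headers, the first gives for each probe and array a deposited signal intensity on a linear scale and a detection p-value against negative controls. The second gives the authors' deposited log2 values, whose steps are not given in the sources used here. They equal the quantile-normalized log2 intensities within 0.0842, so their scale is log2, with array medians of 6.91 to 6.92 and no background correction, and they served as an alternative. Per the submitters' processing notes, GenomeStudio was used. The precision is limited by the number of arrays.

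Gene names came from the platform annotation, updated through RefSeq: 34885 probes had 1 symbol, 18 several and 10378 none. Intensities were background-corrected with normexp by detection p-value by neqc (limma 3.58.1, R 4.3.3; offset 16), which also made the quantiles equal and took log2. Probes with a detection p under 0.05 on at least 2 arrays were kept (17631). One mean per group was fitted to all 6 arrays with lmFit and eBayes, without covariates, and Benjamini-Hochberg adjusted p under 0.05 over all 17631 probes was called. The fit was tested on simulated data. A fold is given as "at least" where neither array of the dimmer group detected the probe: the brighter group's mean is then set against the higher of the lowest detected level and the probe's own level. Summed marker levels add the normalized levels of the markers that passed, off the log scale. In the marker and companion lists, the passing probe of highest mean level stood for a gene. Shares of these lists therefore count genes, while the shares over all probes tested count probes.

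The members and lists were chosen with earlier results of these data known. Named were, per class, up to 6 genes of highest level, up to 4 with the largest called rise and fall per comparison, all genes with several passing probes, up to 4 per list and direction, and Irf8. The head-to-head rule, starts at most 1000 bases apart on opposite strands, was added after the values were seen. Alternatives were other background corrections, scalings, filters, ways to combine probes, variance priors and thresholds, the authors' values, a fit of only the arrays compared, a replicate block, and a fit without each array.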

Additional observations from a re-analysis of the deposited data

How the results depend on the processing

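All 53 probes called in KO and all 50 called in AT3 against WT kept their direction in those of 18 settings that tested them. In settings that leave out an array direction could not reverse, because the groups of a called probe did not overlap. In the 12 settings that leave out no array, 37 and 30 kept their call wherever they were tested. A setting that did not test a probe counts as kept. The brightest probe per gene tested 52 of the 73 probes, and detection p under 0.01 on all arrays tested 55. Histone probes called higher in KO were 15 at adjusted p under 0.01, and 12 to 27 with each array left out, against 20 to 28 called lower. Those higher in AT3 were 8 with no scaling between arrays, 12 with no filter on dim probes, 9 at adjusted p under 0.01 and 5 to 24 with each array left out. Those lower in AT3 were 19 with the brightest or the mean probe per gene, which test fewer features, and 20 to 29 with each array left out. Between AT3 and KO, 55 were lower with no scaling, 1 with the median set equal, 0 with no filter, 1 with the brightest probe or the mean of a gene, 0 with only the arrays compared, 5 with a trend and robust prior, 0 at adjusted p under 0.01 and 0 to 9 with each array left out, and 2 were higher with the median set equal and 0 to 2 with each array left out.

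By class, H2A probes lower were 3 with the brightest or mean probe per gene in both comparisons, and H2A probes higher in AT3 were 5 to 13 with each array left out. H3 probes higher in KO were 4 with no filter, 3 at adjusted p under 0.01 and 1 to 7 with each array left out. In AT3 they were 3 with the authors' values or with no background correction, 0 with no scaling, 2 with no filter, 0 at adjusted p under 0.01 and 0 to 7 with each array left out. H4 probes lower were 4 in KO and 5 in AT3 at adjusted p under 0.01, and 3 to 9 in both with each array left out. The cause of these moves was not tested beyond the settings themselves.

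Probes that changed sign and were called only under the alternative were H2ac18 probe ILMN_1228849 in AT3 against WT (0.75) and H2bc4 probe ILMN_2677231 in AT3 against KO (1.06), both with the median set equal. With no scaling, AT3 was lower than KO for H2bc6 ILMN_2742592 (-0.92), H2bc7 (-1.10), H2bc9 (-1.02), H2bc11 (-0.81), H2bc12 ILMN_2636781 (-1.23), H4c1 (-1.08), H4c9 (-1.10), H4c11 (-1.04), H2ac18 ILMN_2751948 (-1.21) and H2ac20 ILMN_1254276 (-1.17), while the median of all probes was -0.85. Probes uncalled in both fits changed sign 22 times in KO, 17 in AT3 and 80 between AT3 and KO over all settings. Over all probes, calls were 5517 in KO (2712 at adjusted p under 0.01, 2122 to 5805 with each array left out), 5748 in AT3 (2722, 2025 to 6559) and 1854 between AT3 and KO (514, 566 to 1854, and 10141 with no scaling). Without background correction, called differences were at a median of 0.899 and 0.905 of their size. DNA replication genes called higher were then 6 in KO and 8 in AT3, against 15 in each.

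Across probes, the deviations of arrays with the same number from their group means correlated at 0.084, -0.054 and 0.002. With 2 arrays per group, this cannot show whether arrays with the same number were prepared together. With the replicate block, 26 were higher and 27 lower in KO, and 22 higher and 29 lower in AT3. Where 1 array is left in a group, its spread is taken from the other groups, and signals near background limit the dim H1, H3 and H4 probes.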
